A study of Mus musculus with 6 samples.

Results

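The 10 genes described here, Dppa2, Dppa3, Dppa4, Dppa5a, Utf1, Tcl1, Prdm14, Eras, Dazl and Ddx4, are shared by the early embryo, pluripotent stem cells and the germ line. They were listed by symbol, with no threshold on measured values, and all 10 were found among the 19938 mouse genes that had a probe set with a single symbol. Their levels were read on 6 Affymetrix Mouse Gene 1.0 ST arrays of embryoid bodies (EBs), floating aggregates in which embryonic stem (ES) cells differentiate. The EBs came from R1, an established mouse ES cell line, seeded at 35000 cells per ml without the self-renewal factor LIF. Retinoic acid (RA, 2 µM), a vitamin A derivative that acts through nuclear receptors, was added once they were 4 days old. The 3 groups, of 2 arrays each, were EBs collected just before RA (day 0), 3 days later (day 3) and 4 days later (day 4). Day 0 EBs had therefore already spent 4 days without LIF. Bodies of matching age kept without RA were not analysed here, so the effects of RA and of culture time cannot be told apart.

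The Dppa genes owe their name, developmental pluripotency-associated, to being active in pluripotent cells and largely silent in somatic tissues. Dppa2 and Dppa4 encode partner proteins with a SAP domain that bind chromatin together at CpG-rich promoters, and in mouse ES cells they act upstream of genes of the 2-cell embryo. Prdm14 is needed for the specification of primordial germ cells, while Dazl and Ddx4 (the mouse Vasa homologue) mark germ cells after they have reached the gonad. Many germ cell promoters are rich in CpG and are silenced by DNA methylation when the embryo forms somatic lineages.

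All values are RMA intensities on a log2 scale, so that 1 unit is a 2-fold difference. The array medians over all probe sets lay between 6.69 and 6.85, and arrays of the same day correlated at 0.9986 to 0.9988 across genes, which are not independent replicates. Nothing in the labels says that the arrays of a day stem from different cultures. The p-values therefore rest on the spread of these arrays alone, and this spread may be technical. The study does speak of a repeated culture and of biological replicates for the RNA that it sequenced, and does not say so of the arrays. The labels call all samples embryonic stem cells. Pou5f1, the central ES cell factor, averaged 10.24 ± 0.05 at day 0, 6.16 ± 0.21 at day 3 and 6.15 ± 0.01 at day 4 (SD, n = 2), and the naive ES cell marker Zfp42 averaged 5.86, 5.23 and 5.43 on those days. The study treated a gene as undetectable if its mean was under 6 and its SD under 0.3, limits applied here over all 6 arrays. Zfp42 was already under 6 at day 0, 1 of 3 such genes among the 11 naive ES cell markers measured. The brightest of the 11 at day 0 were Tbx3 (11.11), Klf5 (10.53) and Nanog (10.26).

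After 4 days in RA, 7 of the 10 genes were lower than at day 0, none was higher, and Tcl1, Eras and Dazl did not pass the test. The chromatin and stem cell genes Dppa2, Utf1, Dppa5a, Prdm14 and Dppa4 and the germ cell helicase gene Ddx4 were at least 2-fold lower. Dppa3 was 1.20-fold lower, from a day 0 mean of 6.58, near 6, where RMA compresses differences. The median log2 change over the 10 genes was −1.17, against −0.00 over all genes. The background was high, since 51.5% of all genes passed the test at day 4 (limma, adjusted p at most 0.05), 25.6% with lower and 25.9% with higher values. The arrays were also centred on their medians over the tested genes, which are not the medians over all probe sets given above. The calls over all genes then split into 3781 higher and 8521 lower, against 5154 and 5106 as deposited. The same number of members, 7, was lower. Called falls of at least 2-fold were found for 6 of the 10, against 4.61% of all genes. After 3 days the picture was much the same: 7 of 10 genes were lower than at day 0, beside 28.1% of all genes called lower, 23.8% called higher and 51.9% called in either direction. Of the 10, 5 were at least 2-fold lower at day 3, beside 4.09% of all genes, and the median of the 10 was −1.06. Both comparisons use the same day 0 arrays. In whole EBs, a smaller share of cells that express a gene and less of its RNA in each cell cannot be told apart.

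**Figure D1:**
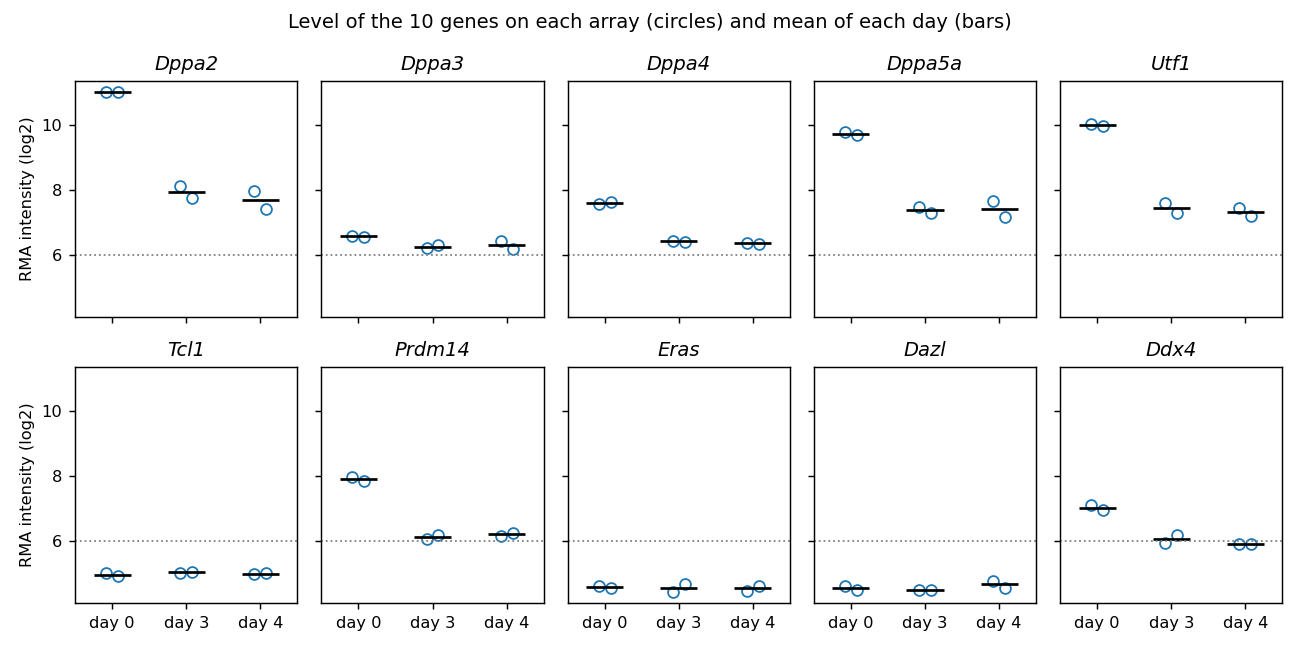
RMA intensity (log2) of the 10 genes on each of the 6 arrays, by day. Points are arrays, bars are means of the 2 arrays of a day, and the dotted line at 6 is the limit on the mean below which the study took a gene of small spread as undetectable. Dppa2, Utf1, Dppa5a, Prdm14, Dppa4 and Ddx4 have both later days below day 0, and Tcl1, Eras and Dazl lie below the line on every array.

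Dppa2 had the largest fall of the 10 on its brighter probe set, while on its dimmer one the change (−2.57, SE 0.19) and that of Utf1 (−2.68, SE 0.12) were within their errors. On the brighter one (10463138) it read 11.01 and 11.00 at day 0, 8.10 and 7.75 at day 3, then 7.95 and 7.40 at day 4. All arrays in RA were far below both day 0 arrays, and the arrays of day 4 and day 3 overlapped. At day 4 its log2 change against day 0 was −3.33 (SE 0.18, adjusted p = 4.74e-06, limma), a 10.04-fold lower level that ranked 30 among the falls of all 19938 genes. On the second Dppa2 probe set (10436053) the values were 7.70 and 7.16 at day 0, 5.07 and 4.92 at day 3, then 4.99 and 4.73 at day 4. That probe set had a log2 change of −2.57 at day 4 (adjusted p = 3.78e-04, limma fit of all probe sets) and −2.44 at day 3. The direction was the same on both probe sets, with a smaller value on the dimmer one. The dimmer one averaged 4.99 at day 3 and 4.86 at day 4, under 6, where RMA compresses differences, so its fall may be understated.

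Dppa4, whose protein pairs with that of Dppa2, also fell. On its brighter probe set (10486954) it read 7.55 and 7.63 at day 0, 6.44 and 6.40 at day 3, then 6.37 and 6.34 at day 4. The arrays within a day differed by little, and every array in RA was more than 1 unit below both day 0 arrays. The change at day 4 was −1.23 (SE 0.06, adjusted p = 1.97e-06, limma), or 2.35-fold lower than at day 0. The second probe set of Dppa4 (10436050) read 6.90 and 7.48 at day 0, 5.96 and 6.06 at day 3, then 5.77 and 5.60 at day 4, with a log2 change of −1.50 at day 4 (adjusted p = 0.00244, limma).

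The probe sets of the partner pair differed in where their numbers place them. Probe sets of this array are numbered largely along the chromosomes: 96.8% of 21698 probe sets with an annotated chromosome shared it with 10 or more of the 20 probe sets numbered closest to them. Dppa2 and Dppa4 are neighbours on chromosome 16. Of the 20 closest numbers to the brighter Dppa2 probe set, 0 belonged to genes of chromosome 16 and 20 to genes of chromosome 19, and for the brighter Dppa4 probe set 0 belonged to chromosome 16 and 20 to chromosome 2. For the dimmer probe set of each gene, 19 of 20 were on chromosome 16. Whether the brighter probe sets read a near-identical copy of these genes elsewhere in the genome was not tested, and their signal is therefore uncertain as a level of Dppa2 or Dppa4. Both probe sets of each gene passed at both days in RA. In the fit of all probe sets, the adjusted p at day 4 (limma) was 2.01e-04 for the brighter Dppa2 probe set and 3.78e-04 for the dimmer. For Dppa4 these values were 8.07e-05 and 0.00244.

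**Figure D2:**
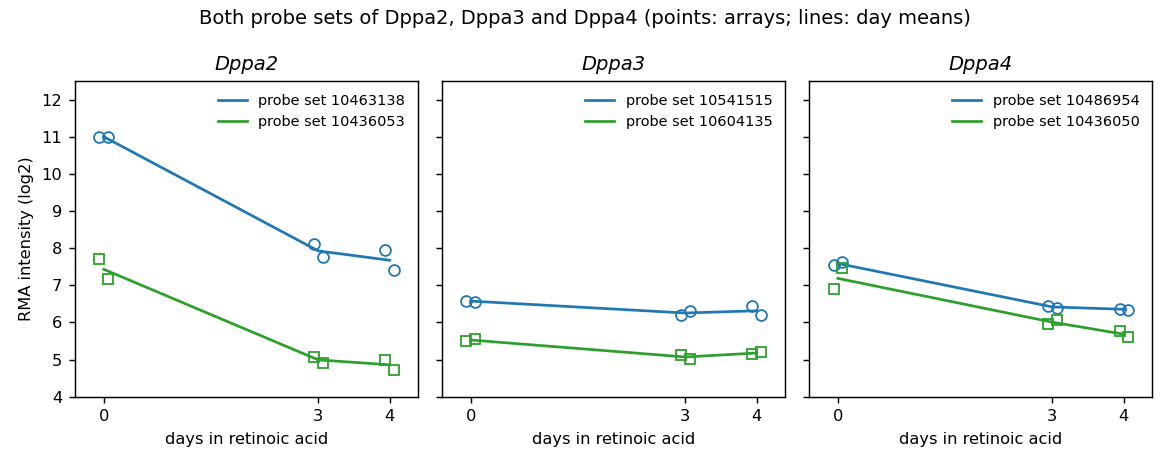
RMA intensity (log2) of both probe sets of Dppa2, Dppa3 and Dppa4 against days in RA. Points are single arrays (circles, brighter probe set; squares, dimmer one) and lines join the day means; all 6 probe sets are lower at day 3 and day 4 than at day 0, with the largest falls on those of Dppa2.

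Utf1, which encodes a chromatin-associated factor of undifferentiated ES cells, also fell steeply. Its arrays (probe set 10558580) read 10.02 and 9.97 at day 0, 7.60 and 7.29 at day 3, then 7.45 and 7.18 at day 4. The later days lay together and well below day 0. Utf1 was 6.40-fold lower at day 4 than at day 0 (log2 change −2.68, SE 0.12, adjusted p = 2.07e-06, limma), which ranked 71 among all falls.

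Dppa5a encodes a KH domain protein that binds RNA and is abundant in ES cells. It read 9.76 and 9.67 at day 0, 7.48 and 7.27 at day 3, then 7.66 and 7.17 at day 4 (probe set 10595156). Its day 4 arrays lay on either side of those of day 3, and all 4 were at least 2 units below day 0. The log2 change at day 4 was −2.30 (SE 0.15, adjusted p = 1.22e-05, limma), a 4.92-fold lower level. The reference annotation lists the pseudogenes Dppa5b and Dppa5c on the same chromosome, and signal shared with them cannot be separated on this probe set.

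Prdm14, a PR domain protein that in mouse ES cells holds down FGF signalling and the DNA methyltransferases, read 7.97 and 7.85 at day 0, 6.06 and 6.18 at day 3, then 6.16 and 6.25 at day 4 (probe set 10353127). The values in RA formed a narrow band near 6. At day 4 Prdm14 was 3.27-fold lower than at day 0 (log2 change −1.71, SE 0.07, adjusted p = 1.38e-06, limma).

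Dppa3, also called Stella or PGC7, is carried by the egg, protects methylated DNA in the zygote and is an early marker of primordial germ cells. It read 6.59 and 6.56 at day 0, 6.20 and 6.31 at day 3, then 6.44 and 6.19 at day 4 (probe set 10541515). The day 0 arrays were the highest in each case, by a small margin. The log2 change was −0.26 at day 4 (SE 0.09, adjusted p = 0.0396, limma) and −0.32 at day 3 (adjusted p = 0.0174, limma). The call at day 4 was lost without either day 0 array (adjusted p = 0.134 without replicate 1 and 0.104 without replicate 2), without either day 3 array (0.0501 each) and without day 4 replicate 2 (0.195, with a change of −0.14). The call at day 3 was lost without day 0 replicate 1 (0.0736), day 0 replicate 2 (0.0588) or day 3 replicate 1 (0.0996). The second probe set (10604135) read 5.49 and 5.57 at day 0, 5.12 and 5.03 at day 3, then 5.15 and 5.20 at day 4. Its changes were −0.35 at day 4 (adjusted p = 0.00758, limma) and −0.46 at day 3 (0.00325), in a fit of all probe sets. In that fit the first probe set did not pass (adjusted p = 0.0854 at day 4 and 0.0504 at day 3, limma). The second probe set had a mean of 5.26 and an SD of 0.22 over the 6 arrays, within the study's limits for undetectable genes. All 20 of its closest numbered neighbours belonged to the X chromosome, where the annotation lists the pseudogene Dppa3-ps, whereas Dppa3 itself lies on chromosome 6.

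Tcl1 and Eras encode proteins that feed the PI3 kinase and Akt pathway: Tcl1 binds Akt, and Eras is a Ras-like protein of mouse ES cells that is active without a growth factor signal. Both were below the study's limits for detection. Tcl1 read 5.00 and 4.92 at day 0, 5.01 and 5.06 at day 3, then 4.98 and 5.02 at day 4 (probe set 10402514). Eras read 4.62 and 4.57 at day 0, 4.43 and 4.67 at day 3, then 4.48 and 4.62 at day 4 (probe set 10603382). Neither passed in any comparison, although both day 3 arrays of Tcl1 were just above those of day 0 (0.08, adjusted p = 0.317, limma). At day 4 the change of Tcl1 against day 0 was 0.04 (95% confidence interval −0.09 to 0.17) and that of Eras was −0.05 (−0.26 to 0.17). RMA compresses differences between dim signals, so these intervals cover the compressed values and do not show that the transcripts were unchanged.

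Dazl and Ddx4 encode RNA-binding proteins of germ cells, and over the 6 arrays Dazl was within the limits for undetectable genes while Ddx4 was not. Ddx4, a DEAD-box RNA helicase, read 7.09 and 6.95 at day 0, 5.95 and 6.17 at day 3, then 5.91 and 5.91 at day 4 (probe set 10412155). Its arrays in RA were all below those of day 0, and the log2 change at day 4 was −1.11 (SE 0.09, adjusted p = 2.70e-05, limma), a 2.16-fold lower level. The day 4 mean of 5.91 was itself under 6, where RMA understates differences, so this fold may be too small. Dazl, which binds the 3' ends of germ cell messages, read 4.62 and 4.49 at day 0, 4.50 and 4.51 at day 3, then 4.79 and 4.56 at day 4 (probe set 10451721). It stayed below the study's limits, with a change at day 4 of 0.12 (95% confidence interval −0.08 to 0.32, adjusted p = 0.291, limma).

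**Figure D3:**
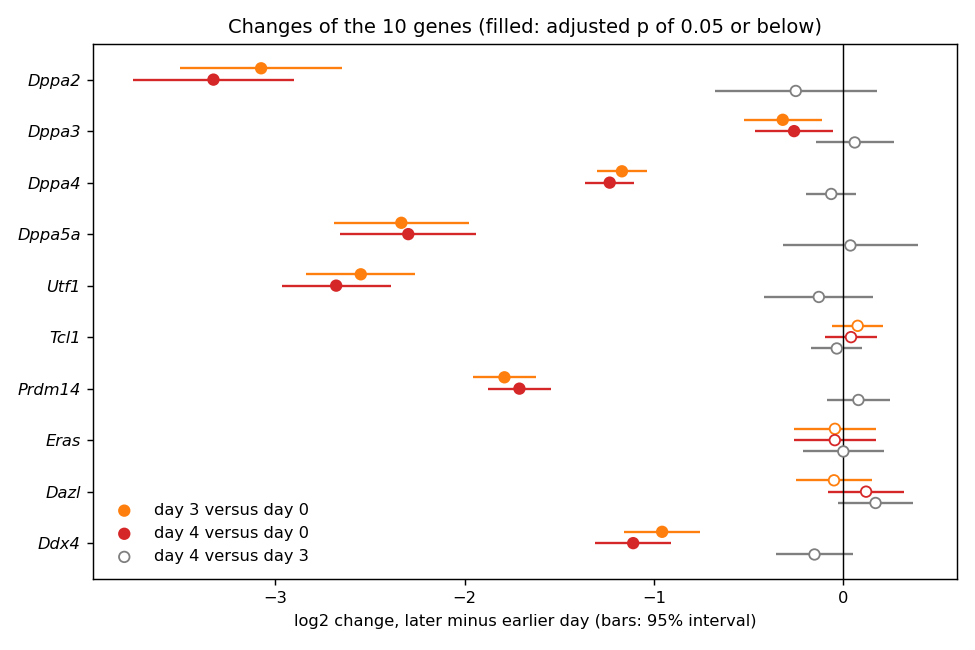
Log2 change of the 10 genes with 95% confidence intervals from the limma fit, for day 3 against day 0, day 4 against day 0 and day 4 against day 3 (2 arrays per day). The changes of both later days against day 0 lie close to each other, from −3.33 for Dppa2 to 0.12 for Dazl at day 4, and every interval for day 4 against day 3 includes 0.

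The promoters of both germ cell genes were rich in CpG, the bases at which DNA is methylated. RefSeq promoters (assembly GRCm38.p6, 250 bases before to 50 after the gene start) were held for 5 of the 10 genes: Utf1, Tcl1, Eras, Dazl and Ddx4. The 3 with the most CpG are shown in lower case with every CpG in capitals, on the strand of the gene. They lie at chr13:112652261-112652560 (minus strand) for Ddx4, chr17:50293571-50293870 (minus strand) for Dazl and chr7:139943606-139943905 (plus strand) for Utf1.
Ddx4: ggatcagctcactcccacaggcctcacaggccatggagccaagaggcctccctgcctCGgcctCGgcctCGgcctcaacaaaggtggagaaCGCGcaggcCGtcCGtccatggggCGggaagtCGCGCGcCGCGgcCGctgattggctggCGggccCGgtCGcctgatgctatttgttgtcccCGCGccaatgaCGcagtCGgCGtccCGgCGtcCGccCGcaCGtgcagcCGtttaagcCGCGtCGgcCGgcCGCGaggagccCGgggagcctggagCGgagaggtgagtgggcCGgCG
Dazl: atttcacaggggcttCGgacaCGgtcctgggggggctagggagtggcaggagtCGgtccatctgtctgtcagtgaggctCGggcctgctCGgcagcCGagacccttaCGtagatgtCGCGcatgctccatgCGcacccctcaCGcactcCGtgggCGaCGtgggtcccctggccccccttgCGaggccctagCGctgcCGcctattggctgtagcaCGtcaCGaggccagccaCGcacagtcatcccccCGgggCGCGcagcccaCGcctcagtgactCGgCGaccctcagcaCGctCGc
Utf1: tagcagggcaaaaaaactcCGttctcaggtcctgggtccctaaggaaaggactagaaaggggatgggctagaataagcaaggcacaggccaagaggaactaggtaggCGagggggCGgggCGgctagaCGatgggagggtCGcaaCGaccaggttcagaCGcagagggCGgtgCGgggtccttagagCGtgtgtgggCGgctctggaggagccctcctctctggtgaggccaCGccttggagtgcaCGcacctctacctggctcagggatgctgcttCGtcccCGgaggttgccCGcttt
The Ddx4 promoter held 38 CpG in 300 bases, with 72.0% G and C and an observed over expected CpG ratio of 0.978. Dazl had 28 CpG (68.7% G and C, ratio 0.795), and Utf1 had 17 (62.0%, ratio 0.615). The median of all 32851 promoters in the table was 7 CpG, and 95% had fewer than Ddx4, 85.8% fewer than Dazl and 68.6% fewer than Utf1. The Tcl1 and Eras promoters, with 11 and 8 CpG, were near the middle of the distribution. Of the 2 genes with the most CpG, Ddx4 fell on the arrays and Dazl was below detection on all 3 days.

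**Figure D4:**
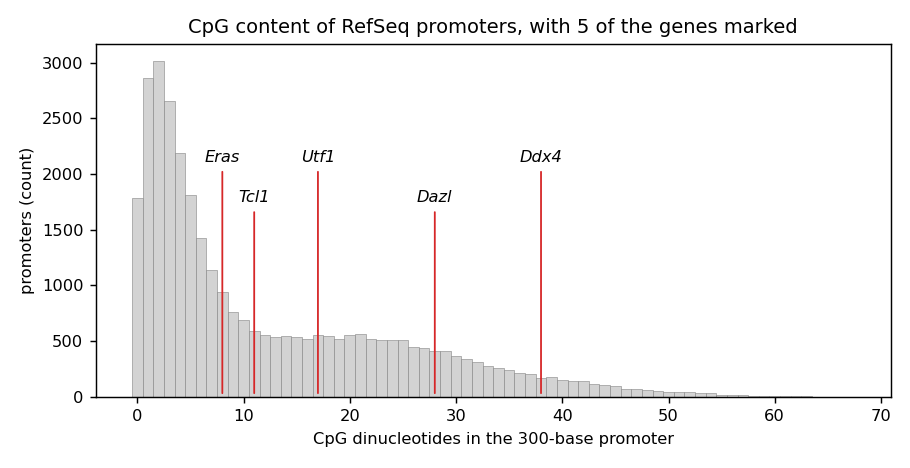
Number of CpG in 300-base RefSeq promoters (GRCm38.p6), for all 32851 promoters as a histogram, with the 5 genes that matched marked. Eras (8) and Tcl1 (11) lie near the median of 7, Utf1 (17) and Dazl (28) to the right of it, and Ddx4 (38) in the far tail.

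Searches on both strands of the 5 promoters covered the octamer ATGCAAAT bound by Oct4-type factors, the E-box CACGTG, the E2F site GGCGGGAA and the retinoid direct repeat, which is the letters AGGTCA in tandem with 5 bases of any kind between. The Ddx4 promoter was the only one of the 5 with a match. The E-box, 29 bases before the start, and the E2F letters, 137 bases before it, are shown in capitals with 10 bases on either side.
Ddx4 E-box: cgtccgcccgCACGTGcagccgttta
Ddx4 E2F: ccgtccatggGGCGGGAAgtcgcgcgcc
The E-box occurred in 7.15% of all promoters in the table and the E2F letters in 2.19%. The octamer occurred in 1.74% and the retinoid repeat in 0.00913%. These are matches of letters in a short window and were not tested as binding sites.

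Between day 4 and day 3, 0 of the 10 genes passed (limma), beside 28.1% of all genes (12.2% lower and 15.8% higher), and 0 had an unadjusted p below 0.05. The changes lay between −0.25 for Dppa2 and 0.17 for Dazl, with a median of −0.02, against 0.05 over all genes. The lowest unadjusted p was that of Dazl (0.0849, adjusted p = 0.180, limma), and its day 4 arrays were both above those of day 3, within the range of values below detection. The intervals were wide for some genes: that of Dppa2 ran from −0.68 to 0.17. For the 6 genes at least 2-fold lower at day 4, the fall already seen at day 3 was 86.2% of the day 4 fall for Ddx4, 92.4% for Dppa2, 94.8% for Dppa4, 95.1% for Utf1, 101.6% for Dppa5a and 104.6% for Prdm14. Ddx4 (6.06 at day 3 and 5.91 at day 4), Prdm14 (6.12 and 6.20) and Dppa4 (6.42 and 6.35) were near 6 in RA. RMA compresses differences between such dim signals, so a further fall after day 3 could be missed for these genes. The shares of Dppa2 and Dppa4 are those of the brighter probe sets, whose signal is uncertain. On the dimmer Dppa4 probe set the changes against day 0 were −1.18 at day 3 and −1.50 at day 4. Between these days it changed by −0.32 (adjusted p = 0.29, limma). The dimmer Dppa2 probe set changed by −2.44 at day 3 and −2.57 at day 4 against day 0.

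Genes with the most similar course were found by the distance between the 6 array values after subtraction of each gene's day 0 mean, so that 0 is an identical course. The values share arrays and normalization, and the distances are a description. For Dppa2 and Dppa4 they rest on the brighter probe sets, whose signal is uncertain, and the dimmer ones were not compared. Closest to Dppa5a was Nanog, a homeobox factor of pluripotent cells (distance 0.194), followed by Fst, which encodes an activin inhibitor (0.374), and Parp12 (0.388). Dppa4 lay closest to Aunip (0.074), Epop, a Polycomb-associated gene of ES cells (0.10), and Tnfrsf13c (0.109). The genes nearest to Dppa2 were Nxf7 (0.35), Amot, which encodes a regulator of YAP signalling (0.45), and the galectin gene Lgals3 (0.471). For Utf1 they were Ahnak (0.231), Gfpt2 (0.317) and Gldc, the glycine decarboxylase gene (0.327). For Prdm14 they were the growth factor gene Pdgfb (0.14), the receptor gene Nrp2 (0.155) and Tnfrsf22 (0.156), and for Ddx4 they were Fermt1 (0.129), the kinesin gene Kif5c (0.138) and Cpne2 (0.15). Among the members that fell at least 2-fold, the closest pairs were Dppa4 with Ddx4 (0.422) and Dppa5a with Utf1 (0.643).

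Adjacent protein-coding genes, taken from the order in the RefSeq table, did not all share the falls. Next to Dppa2 on the side away from Dppa4, the germ cell gene Morc1 had a change of −0.09 at day 4 (adjusted p = 0.359, limma). Its day means were 5.57, 5.36 and 5.48, each under 6, where RMA compresses differences and a fall could be missed. Prdm14 lies between Slco5a1 and Ncoa2. Slco5a1, a transporter gene, averaged 8.12 at day 0, 6.27 at day 3 and 6.37 at day 4 and fell by 1.75 on the log2 scale at day 4 (SE 0.10, adjusted p = 5.10e-06, limma), beside −1.71 for Prdm14, while the coactivator gene Ncoa2 rose by 0.21 (adjusted p = 0.0127). Dppa3 sits between Gdf3, a TGF-beta family ligand of pluripotent cells, and Nanog. These changed by −1.27 and −2.33 on the log2 scale at day 4, beside −0.26 for Dppa3. At day 0 Dppa3 averaged 6.58, near 6, against 7.38 for Gdf3 and 10.26 for Nanog, so a larger fall of Dppa3 could be missed. Around Dazl, which was below detection, the log2 changes of Rftn1 and Plcl2 were −2.31 and −1.14. The gene Ooep, an egg-expressed KH domain relative next to Dppa5a, was lower at day 3 (−0.55, adjusted p = 0.0111, limma) and did not pass at day 4 (−0.34, 0.074).

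Lists of related genes were read against the shares over all genes at day 4, of which 25.6% were called lower and 25.9% higher. Of 15 primordial germ cell regulators, all measured, 10 were lower at day 4 than at day 0, 1 was higher and 4 did not pass, with a median of −1.05. The largest falls were those of the RNA-binding gene Lin28a (−4.25), the zinc finger gene Sall4 (−4.21) and the alkaline phosphatase gene Alpl (−2.67), each with a known role in pluripotent cells as well. Itgb3, an integrin gene, was the 1 that rose (1.81, adjusted p = 1.88e-06, limma). Kitl, which encodes the ligand of the Kit receptor (−0.18, adjusted p = 0.0735), and the Prdm14 partner gene Cbfa2t2 (0.10, 0.207) did not pass.

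Germline and meiosis genes that are silenced in somatic cells had no more calls than the background in either direction. Of 26 measured out of 27, 6 were lower, 4 higher and 16 did not pass at day 4, beside 51.5% of all genes called, with a median of −0.00, and 18 of the 26 were within the study's limits for undetectable genes. Rec8, a meiotic cohesin subunit, rose by 1.90 on the log2 scale (SE 0.06, adjusted p = 3.05e-07, limma), with day means of 7.56, 9.70 and 9.46. Sycp3, a component of the synaptonemal complex, fell by 0.90 (adjusted p = 4.86e-05), and Mael, a gene of the piRNA pathway, rose by 0.62 (0.00666). Ddx25, a testis helicase gene related to Ddx4 (0.15, adjusted p = 0.0796), and Brdt (0.13, 0.0894) did not pass.

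Pluripotency genes were mostly lower. Of 13 measured naive pluripotency genes out of 14, 8 were lower at day 4, 1 was higher and 4 did not pass, with a median of −0.68; the largest falls were those of Nanog (−2.33), Klf5 (−1.96) and Tbx3 (−1.59). Klf2 (−0.15, adjusted p = 0.106, limma) and Nr5a2 (−0.08, 0.512) did not pass. Of the 9 core pluripotency factors 8 were lower and 0 higher, with a median of −2.33, led by the nodal co-receptor gene Tdgf1 (−4.97), Lin28a and Sall4. Klf4 was the exception at day 4 (−0.01, adjusted p = 0.944), but at day 3 it was lower too (−0.25, adjusted p = 0.00874, limma), as were all 9 core factors. The lists share genes with each other, among them Nanog, Lin28a and Sall4.

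Genes of DNA methylation and of the repression of germ cell genes split differently by day. At day 3, 6 of 15 were lower and 6 higher than at day 0, with a median of 0.07, beside 28.1% and 23.8% of all genes. At day 4, 8 were lower, 3 higher and 4 did not pass, with a median of −0.20, beside 25.6% and 25.9% of all genes. The largest falls at day 4 were those of the de novo methyltransferase gene Dnmt3b (−2.65), its cofactor gene Dnmt3l (−2.44) and L3mbtl2, which belongs to a repressor complex with E2F6 (−1.35). The 3 genes that were higher were Tet2 (1.32), the methyltransferase gene Dnmt3a (0.95) and Tet3 (0.83). E2f6 itself (0.07, adjusted p = 0.319, limma) and Setdb1 (−0.06, 0.392) did not pass at day 4, while Setdb1 was higher at day 3 (0.28, adjusted p = 0.00338, limma). Of 12 genes of the 2-cell stage that lie downstream of Dppa2 and Dppa4, 6 were measured. Zscan4c, Zscan4d, Zscan4f, Tdpoz4, Tcstv1 and Duxf3 were not found among the genes with a single-symbol probe set, so nothing is known of them here. None of the 6 passed at day 4 and all were within the limits for undetectable genes on these arrays. Those with the smallest p were Usp17la (−0.15, adjusted p = 0.261, limma) and Tdpoz1 (−0.09, 0.390), and Tdpoz1 was the 1 gene of the 6 called lower at day 3 (−0.27, adjusted p = 0.0195).

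Among 21 measured relatives and partners of the members out of 27, 4 were lower, 3 higher and 14 did not pass at day 4, beside 51.5% of all genes called, and the median was 0.05. The largest changes were those of Prdm1, which with Prdm14 specifies germ cells (−1.87), Boll, a gene of the Dazl family (−0.89), and the helicase gene Ddx3x (−0.49). Boll averaged 5.90, 4.96 and 5.02 on days 0, 3 and 4, each under 6. Ooep and Tcl1b4, a Tcl1 relative next to it (−0.21, adjusted p = 0.122, limma), did not pass at day 4.

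**Figure D5:**
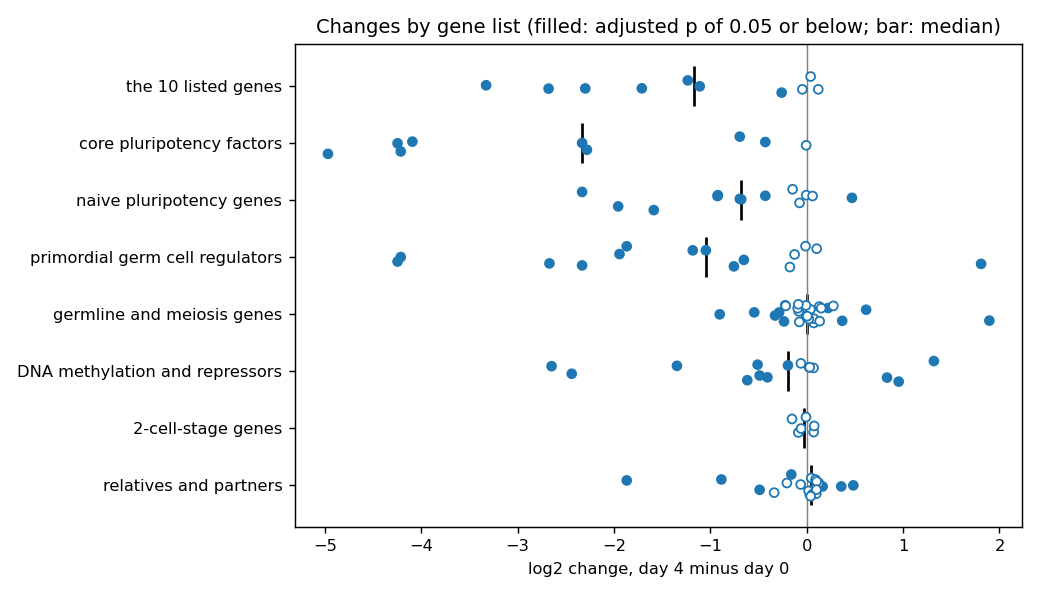
Log2 change at day 4 against day 0 for each measured gene of the 10 members and of the related lists (points), with the median of each list. The germ cell regulators and the core factors have medians of −1.05 and −2.33, and the germline and meiosis genes centre on 0.

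Markers of the cell types that EBs could hold were counted beside the members, with the sum of their linear intensities on each array. Over all genes, 25.6% were called lower and 25.9% higher at day 4 against day 0. For 13 germ cell markers the sum was 8404 to 8482 at day 0, 5279 to 5285 at day 3 and 5157 to 5188 at day 4, with 7 genes lower and 2 higher at day 4 against day 0. Ifitm3, a membrane protein gene that other cells use too, gave 64.6% to 66.5% of the day 0 sum. Without it the sums were 2817 to 3002, 2617 to 2643 and 1883 to 1908 on days 0, 3 and 4. Nanos2, Tdrd1, Sycp1, Sycp3 and Stra8 had means under 6 on all days. For 11 naive ES cell markers the sum was 5798 to 6146 at day 0, 2145 to 2225 at day 3 and 2236 to 2276 at day 4, with 6 genes lower and 1 higher. Without Tbx3, the brightest of them, the sums were 3633 to 3881, 1408 to 1432 and 1516 to 1523. Primed epiblast markers summed to 6372 to 6683, 6531 to 6552 and 5778 to 5953 on days 0, 3 and 4, with 3 of 8 genes lower and 4 higher at day 4, and without Cdh2 to 2606 to 2882, 1748 to 1809 and 2010 to 2045. Visceral endoderm markers summed to 4762 to 5069, 3083 to 3243 and 2762 to 2787, with 2 of 8 lower and 3 higher. Apoe alone gave 82.2% to 84.2% of the day 0 sum, and without it the sums were higher in RA, at 800 to 848, 997 to 1236 and 1037 to 1086. The direction of that sum thus rests on 1 gene. Of 9 markers of lymphocytes, cells that also use Tcl1, 2 were lower and 0 higher, and 6 had means under 6 on every day. The part of these cell types in the changes of the members was not tested.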

How the data were processed

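RNA of EBs was measured on 6 one-colour arrays, and days and replicate numbers came from the sample titles. The authors ran RMA in Partek, and the deposited table holds log2 intensities. RMA includes quantile normalization, so a change in total RNA cannot be seen. The software version and a genome build for the arrays are not given in the sources used here. Array intensities have no read depth, and the number of arrays limits the precision.

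Of 35557 probe sets, 21789 had 1 gene symbol, 1621 had several and 12147 were unnamed here. Each of the 19938 genes was represented by its brightest probe set (highest mean of 6 arrays), and 999 genes had several. For 21698 probe sets the gene was found in the RefSeq table of GRCm38.p6, used for names, gene order and chromosomes.

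Tests used limma 3.58.1 in R 4.3.3 (lmFit, then eBayes without trend or robust options). A single fit held all 6 arrays and left 3 residual and 4.07 prior degrees of freedom. Two-sided p-values were adjusted by Benjamini-Hochberg across the whole set of genes, and genes at 0.05 or below were called. The second probe sets of Dppa2, Dppa3 and Dppa4 are an exception. Their standard errors and p-values come from a separate fit of all 35557 probe sets, adjusted over these. The fit was tested on simulated data. Standard errors are those of the moderated fit.

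All members were named. From each list, the 3 genes with the largest change at day 4 that passed and up to 2 with the smallest p that did not were named. The 3 most similar genes of each member with a called change of at least 1 were named too, with predicted genes, clone names, receptors of smell and small RNAs skipped. Pou5f1, Zfp42, Itgb3, Tet2, Dnmt3a, Tet3 and the genes adjacent to the members were added after their values were seen, as was the check of probe set numbers. Members and lists were chosen with earlier results of these data known. Alternatives covered the normalization, the probe set rule, a filter on dim genes, the replicate block, the model settings and each array left out. Neither the labels nor the study say whether the replicate numbers pair the arrays. Differences between replicates correlated at 0.034 to 0.083 between days, which does not exclude a pairing.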

Additional observations from a re-analysis of the deposited data

How the results depend on the processing

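The count of members that passed was 6 to 7 at day 4 and at day 3 against day 0, and 0 for day 4 against day 3, in every alternative and with each array left out. The 1 call that was lost was that of Dppa3, in 8 of 16 alternatives at day 4 and in 5 at day 3. At day 4 these included all probe sets adjusted together (adjusted p = 0.0854, limma), the compared days alone (0.0501) and a replicate block (0.0513). At day 3 they included cyclic loess (0.0520) and all probe sets together (0.0504). Without either day 3 array, the fit of day 4 against day 0 was the same as with the compared days alone. The same held for day 3 against day 0 without either day 4 array, so the alternatives are not all distinct. The replicate block changed no other call, and whether a shared replicate number means a shared culture is not stated. The trend with robust fit, the second probe sets and the marker sums without the brightest gene were chosen after seeing the data.

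Signs turned only for changes that had not passed. With median centring, Tcl1 became −0.11 and Dazl −0.0267 at day 4 against day 0, Tcl1 −0.0254 at day 3 against day 0, and Dppa5a −0.0092 at day 4 against day 3. With cyclic loess, Eras became 0.0166 and Dazl 0.0118 at day 3 against day 0, and Dppa3 −0.0228 and Prdm14 −0.0013 at day 4 against day 3. With 1 array left out, the day 4 against day 0 change ran from −0.0027 to 0.0827 for Tcl1 and from −0.119 to 0.0278 for Eras. The day 3 against day 0 change ran from −0.167 to 0.0768 for Eras and from −0.112 to 0.0123 for Dazl. For day 4 against day 3 it ran from −0.526 to 0.0227 for Dppa2, −0.0611 to 0.181 for Dppa3, −0.207 to 0.281 for Dppa5a, −0.289 to 0.0289 for Utf1 and −0.122 to 0.121 for Eras. The cause was not tested.

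Median centring used the medians over the tested genes. It moved the median gene to −0.15 against day 0 and changed the split of calls over all genes. This split was 3781 higher and 8521 lower at day 4 against day 0 (5154 and 5106 as deposited). At day 3 against day 0 it was 3889 and 8495 (4749 and 5596), and at day 4 against day 3 it was 2268 and 3081 (3156 and 2437). The number called between day 4 and day 3 was 5593 with all arrays and 2728 to 3960 without 1 array of those days. A filter on a mean of 6 dropped Tcl1, Eras and Dazl, whose signal over background limits what can be said of them.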
